A study of Mus musculus with 3 samples.

Results

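The genes described are 8 members of the pathway that carries fatty acids to nuclear receptors: the fatty acid binding proteins Fabp3, Fabp4 and Fabp5, the receptors Ppara, Ppard and Pparg, their partner Rxra, and Cd36, a fatty acid translocase of the cell surface. Every noncontrol probe that the array files name for one of them was taken, which gave 12 probes at 21 spots, against 39429 distinct probes in all. The set was chosen from the RM1-MXRA7 over RM1-VE ratios of these same arrays, so the members' ratios are a description and carry no p-value.

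The cells are 2 derivatives of RM1, a prostate cancer line of the mouse. The labels give RM1-MXRA7 as transfected with MXRA7, whose name refers to matrix remodelling, and RM1-VE as carrying the empty vehicle vector. Both lines were kept in serum-containing medium with G418, and total RNA was taken in exponential growth, on day 2. On each of 3 Agilent 2-colour arrays RM1-MXRA7 was labelled with Cy3 and its control with Cy5. Every probe thus has 3 log2 ratios of RM1-MXRA7 over RM1-VE, and n = 3 throughout. The labels do not say whether the lines were clones or pools, nor whether the replicates were separate cultures, so the spread between arrays may be technical.

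Fatty acid binding proteins are small cytosolic proteins that hold a long-chain fatty acid and can deliver it to other compartments, including the nucleus. The peroxisome proliferator-activated receptors (PPARs) are nuclear receptors that fatty acids activate, and each binds DNA as a pair with a retinoid X receptor (RXR). Ppara is best known for fatty acid oxidation in liver, Pparg for fat cell formation and Ppard for a broad role in oxidative metabolism. Fabp5 can also carry retinoic acid, and has been studied in prostate cancer cells.

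All 3 arrays lay on 1 slide and the dyes were never swapped, so dye bias of a probe and a true difference of the cells cannot be told apart. The ratios drifted with the row of the spot on each array, and a smooth surface over row and column took 34.5%, 33.7% and 25.5% of their variance. Values below are those before that surface was removed unless stated. A gene is said to have risen or fallen only where limma called it in the same direction before and after removal, at a Benjamini-Hochberg adjusted p of 0.05 over 16819 genes. By that rule 1608 genes rose (9.56% of those tested) and 1820 fell (10.8%), and the median log2 ratio of all genes was -0.015 before and 0.0041 after removal. Median centring in place of loess moved that median to -0.29 and the split of calls from 4012 higher and 3951 lower to 954 and 9868. The labels do not say from which species the transfected MXRA7 came, which limits what a probe of the mouse gene can show. The brighter Mxra7 probe gave log2 ratios of 0.39, 0.39 and 0.15 before removal and a mean of -0.019 ± 0.04 (SD, n = 3) after it. The dimmer probe gave 0.10 ± 0.04 before and 0.082 ± 0.05 after, above 0 on 3 of 3 arrays both times. The directions below therefore rest on the dyes stated in the labels.

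The Fabp5 sequence is shown because another probe on the array holds most of it, and the Fabp3 stretch because both Fabp3 probes hold it. The Fabp5 probe of 60 bases shares an unbroken run of 50 bases, from its base 9 to its base 58, with a probe that the files name NAP114472-1 and give no gene symbol. The first 30 bases of each are given 5′ to 3′, with the shared run in capitals as far as it falls in them.
Fabp5: gtcaaatgCAACAAACAGCTTCACTTCTTT
NAP114472-1: cggacataaaCAACAAACAGCTTCACTTCT
The 2 Fabp3 probes overlap by 51 bases, of which 30 are shown, with the hexamer AATAAA in capitals. It has the sequence of the polyadenylation signal, but whether it serves as one here was not tested. That hexamer lies in 12.6% of the 39429 probes, read on the probe strand.
Fabp3: tgctccaaggtcAATAAAgcagaaccaagg
For the other members, the longest run shared with a probe of another gene was 12 to 15 bases, as it was for Fabp3.

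Of the 8 genes, 6 passed the filter, having a probe well above background in 1 line or both on all 3 arrays, and 5 of them were above it in both lines. Both fits called 3 of the 6 higher in RM1-MXRA7, which were Fabp5, Fabp4 and Pparg, and 1 lower, Ppara. Fabp4 passed the filter through RM1-MXRA7 alone, the line where it is the higher, so its call is not one made on levels measured in both lines. The share of all genes called was 9.56% upward and 10.8% downward. Since these contrasts chose the genes, nothing is read from the counts. Fabp3 and Cd36 passed in neither line and have no usable ratio.

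**Figure D1:**
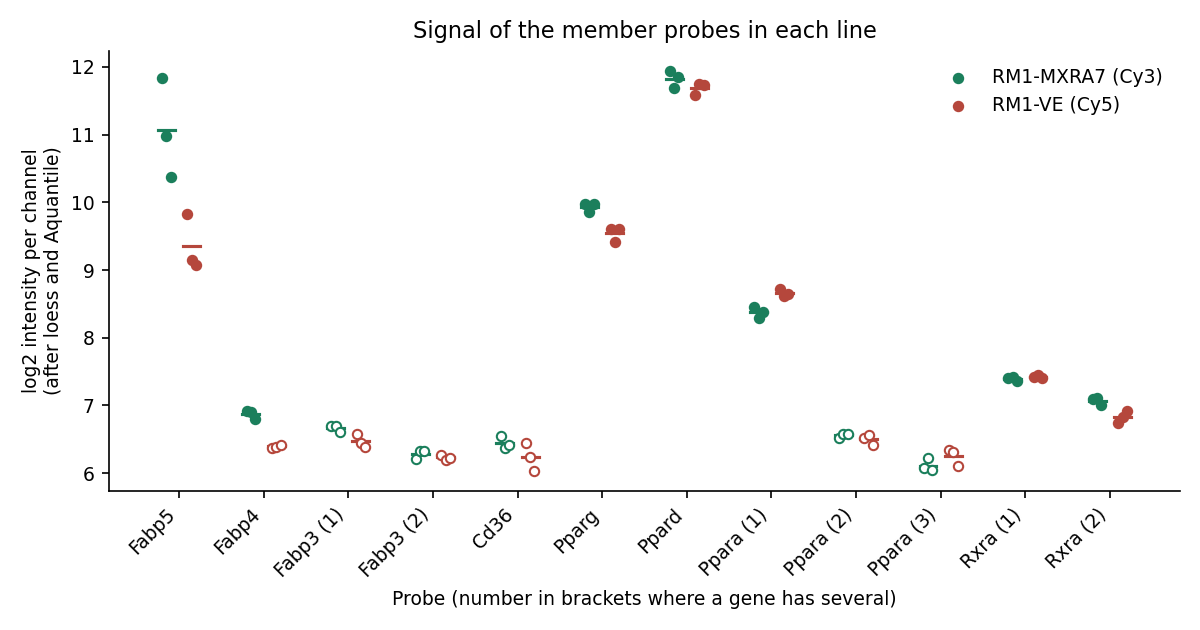
Log2 intensity in RM1-MXRA7 (green) and RM1-VE (red) for each of the 12 probes, 1 point per array with a bar at the mean of 3. Filled points mark a probe well above background on all 3 arrays in that line. Levels are compared only within a probe. For Fabp5 the 3 RM1-MXRA7 points run from 10.37 to 11.84 and the 3 RM1-VE points from 9.08 to 9.83.

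Fabp5, the epidermal type binding protein, had the highest ratio of the members. Its probe lies on chromosome 3, plus strand, at 10016185 to 10016244 on mm9, the build of the array files, for which no exon annotation was used. Its mean spot intensity in Cy3 was 3049, 1558 and 1209 on arrays 1, 2 and 3, against 1018, 679 and 684 in Cy5. RM1-MXRA7 was brighter on every array. After normalization the log2 level per channel was 11.84, 10.99 and 10.37 in RM1-MXRA7 and 9.83, 9.15 and 9.08 in RM1-VE. The log2 ratio was 2.01, 1.83 and 1.29 on the 3 arrays, with a mean of 1.71 ± 0.37 (SD, n = 3), which is 3.28-fold.

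Array 1 was the highest for Fabp5 in both lines. The SD of its level between arrays was 0.74 in RM1-MXRA7 and 0.42 in RM1-VE, where the median gene had 0.12 and 0.13. That spread was larger than for 99.5% of the genes tested in RM1-MXRA7 and 97.0% in RM1-VE. With the surface removed the ratios were 1.69, 1.44 and 1.07 and the mean 1.40 ± 0.32 (SD, n = 3), or 2.64-fold, again highest on array 1 and lowest on array 3. Among the 16819 genes tested, Fabp5 ranked 19 by mean ratio before removal and 27 after it.

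Fabp4, the adipocyte type binding protein, was well above background on 3 of 3 arrays in RM1-MXRA7 and on 0 of 3 in RM1-VE. Its probe lies on chromosome 3, minus strand, at 10204452 to 10204511 (mm9). The log2 levels were 6.92, 6.90 and 6.80 in RM1-MXRA7, and 6.37, 6.39 and 6.42 in RM1-VE were measured where the spots were not well above background. The 2 sets lay within 1 log2 unit of each other near the detection limit. Because RM1-VE gives no measured level, only a nominal bound was set, by which Fabp4 was 1.36-fold higher in RM1-MXRA7 before surface removal. For it RM1-VE was given the lowest signal of any probe well above background on that array, unless the Fabp4 spot itself was higher. That lowest signal is not an upper limit for an undetected spot, so 1.36-fold is not a strict lower limit. The measured log2 ratio was 0.48 ± 0.09 (SD, n = 3), and 0.30 ± 0.04 with the surface removed. The latter is 1.23-fold, below the nominal bound, which applies only to the values before removal.

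Fabp3, the heart type binding protein, was not well above background in RM1-VE with either probe. One of its probes was above it in RM1-MXRA7 on 1 array, with a log2 ratio of 0.20 ± 0.07 (SD, n = 3), and the other on 0 arrays, with 0.056 ± 0.11. The Cd36 probe, on chromosome 5 at 17288600 to 17288659 (mm9), was not well above background on any array in either line. Its measured ratios were 0.11, 0.13 and 0.38 and are not read as a difference. Both genes are therefore described only as not well above background in these cells, with that single Fabp3 exception.

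**Figure D2:**
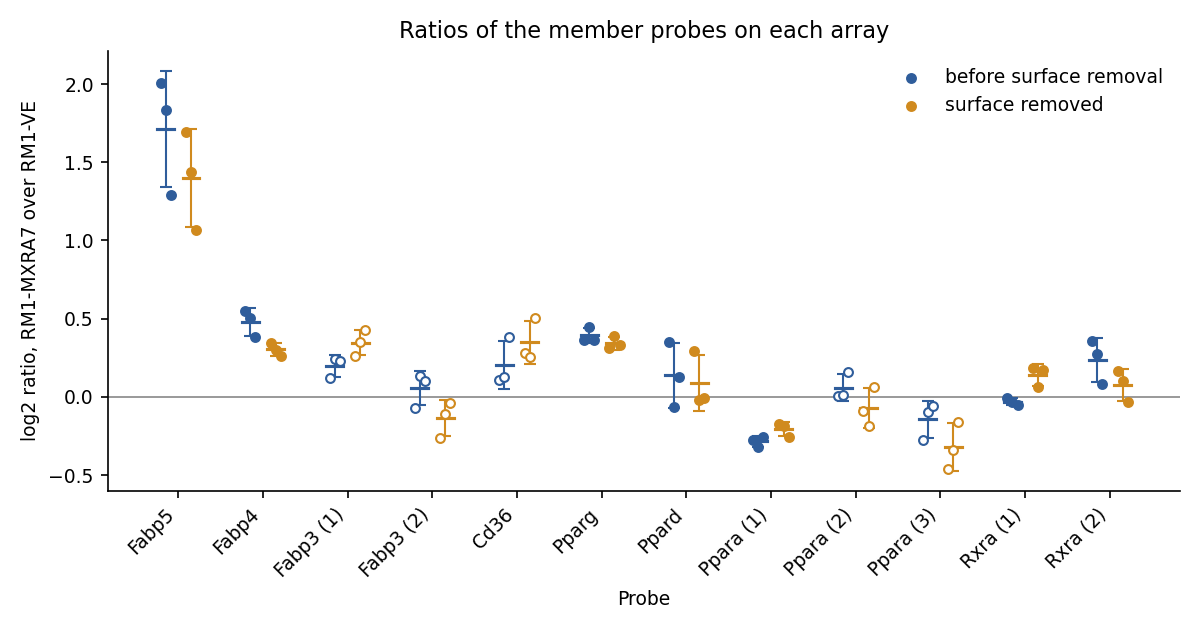
Log2 ratio of RM1-MXRA7 over RM1-VE for each of the 12 probes on each array, before (blue) and after (orange) removal of the surface over row and column, with the mean and SD of 3 arrays. Open points mark probes that did not pass the filter. Fabp5 stands at 1.71 and 1.40, and the other probes that passed lie between -0.28 and 0.48 before removal.

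Among the receptors, Pparg had the highest ratio. It is measured by 1 probe on chromosome 6, at 115440213 to 115440272 (mm9), that is spotted 10 times on each array. Averaged over its spots, the log2 level was 9.97, 9.86 and 9.97 in RM1-MXRA7 and 9.61, 9.41 and 9.60 in RM1-VE. RM1-MXRA7 was above RM1-VE on every array. The log2 ratio was 0.36, 0.45 and 0.37, with a mean of 0.39 ± 0.05 (SD, n = 3), or 1.31-fold. It was 0.34 ± 0.04 with the surface removed and 0.38 ± 0.04 in the signals processed by Agilent's software.

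The 10 spots of Pparg hold the same sequence at 10 places, so they show how far position and the noise of single spots together moved a ratio. On array 1 they ran from -0.020 to 0.68, on array 2 from 0.15 to 0.77 and on array 3 from 0.062 to 0.63. The 6 spots with the lowest row numbers had mean ratios of 0.56, 0.60 and 0.49 on the 3 arrays, and the other 4 had 0.064, 0.22 and 0.18. On array 1 the 2 sets differed by more than the mean ratio of Pparg itself. With the surface removed the SD over the spots went from 0.28, 0.25 and 0.20 to 0.098, 0.068 and 0.067, and 10 of 10 spots were above 0 on each array. A ratio of a member that rests on 1 spot has no such average behind it.

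**Figure D3:**
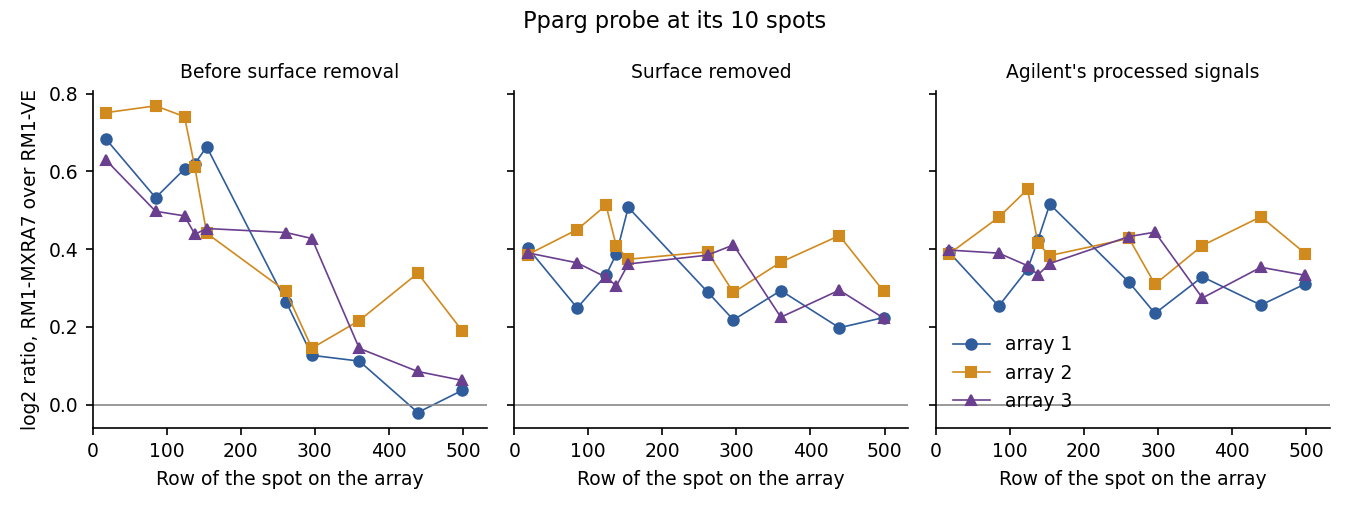
Log2 ratio of RM1-MXRA7 over RM1-VE at each of the 10 spots of the Pparg probe, against the row of the spot, for arrays 1 to 3, before surface removal, after it and in Agilent's processed signals. Before removal the spots fall from as much as 0.77 in the first rows to as little as -0.020 in the last; after it they lie between 0.20 and 0.51.

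Ppara went the other way. Its brightest probe, on chromosome 15 at 85632534 to 85632593 (mm9), had log2 levels of 8.45, 8.29 and 8.38 in RM1-MXRA7 and 8.73, 8.62 and 8.64 in RM1-VE. RM1-MXRA7 was below RM1-VE on every array. The log2 ratio was -0.27, -0.32 and -0.26, with a mean of -0.28 ± 0.03 (SD, n = 3), a level 1.22-fold lower, and -0.20 ± 0.04 after surface removal. The other 2 Ppara probes did not pass the filter. One, at 85632110 to 85632169, was above background on 2 arrays in RM1-MXRA7 and 1 in RM1-VE, with 0.057 ± 0.09, and the other, at 85637193 to 85637252, on none, with -0.14 ± 0.12. The lower level of Ppara thus rests on 1 probe at 1 spot per array.

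Ppard was bright in both lines and showed no difference beyond its spread. Its probe lies on chromosome 17, at 28438298 to 28438357 (mm9). The log2 levels were 11.94, 11.68 and 11.85 in RM1-MXRA7 and 11.59, 11.75 and 11.73 in RM1-VE, which overlap. The ratio was 0.35, -0.066 and 0.13, a mean of 0.14 ± 0.21 (SD, n = 3), with array 2 on the other side of 0.

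Rxra was measured by 2 probes on chromosome 2 that disagreed before surface removal. The brighter, at 27618781 to 27618839 (mm9), gave -0.032 ± 0.02 (SD, n = 3), with levels of 7.40, 7.42 and 7.35 in RM1-MXRA7 and 7.41, 7.45 and 7.41 in RM1-VE. The dimmer, at 27615316 to 27615375, gave 0.24 ± 0.14. With the surface removed they stood at 0.14 ± 0.07 and 0.078 ± 0.10, and in Agilent's processed signals at 0.30 ± 0.07 and 0.27 ± 0.17. Neither direction nor size is therefore given for Rxra.

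The position of each single spot was set against 250 other probes that passed the filter and were spotted 10 times. Around the Fabp5 spot, in row 23, 113 to 137 neighbouring spots of such probes per array lay 0.27 ± 0.06 (SD over 3 arrays) above the means of their own probes. Subtracting that offset left Fabp5 at 1.44 ± 0.33. The offset was 0.22 at the Fabp4 spot, in row 110, which left 0.26 ± 0.03, and -0.059 at the Ppara spot, in row 290, which left -0.23 ± 0.07. The direction of these 3 genes was the same before and after subtraction. For Fabp4 the RM1-VE spots were not well above background, so 0.26 is not a ratio of levels measured in both lines. The genes were chosen on these ratios, so the shared direction is a description only.

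The genes around Fabp5 on chromosome 3 were measured as its neighbours. Within 1 Mb of its probe the array holds 26 probes of 18 names, and 7 genes passed the filter, Fabp5 among them. The median log2 ratio of the other 6 was -0.026, and 2 of the 6 rose, where 9.56% of all genes did. One was Fabp4, the nearest, at 188 kb, with the ratios given above. Fabp4 is a member chosen on these ratios and passed the filter through RM1-MXRA7 alone, so nothing is read from that count. Zfp704, a zinc finger gene whose probe lies 589 kb before that of Fabp5, rose, with 0.66 ± 0.18 (SD, n = 3; limma adjusted p = 2.1e-05) before and 0.43 ± 0.21 (adjusted p = 0.0055) after surface removal. Impa1, for inositol monophosphatase, fell, with -0.31 ± 0.15 (limma adjusted p = 0.0053) before and -0.24 ± 0.11 (adjusted p = 0.022) after it, a call lost without array 1 or 2. Zbtb10, Zfand1 and Snx16 had ratios of 0.0013 ± 0.17, -0.31 ± 0.25 and -0.053 ± 0.06 and were not called in both fits. Pmp2, Fabp9 and Fabp12, the other binding protein genes of this stretch, did not pass the filter.

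The genes whose ratios over the 3 arrays were closest to those of Fabp5 were sought among the other 16818 genes tested, by Euclidean distance. The nearest was NAP111439-1, at a distance of 0.24, and the next NAP114472-1, the probe with the shared run, at 0.28. Both were passed over by the rule for naming genes, which leaves out clones, and are named here after their values were seen. NAP114472-1, placed on chromosome 8 at 35370217 to 35370276 (mm9), had ratios of 1.92, 1.58 and 1.24. Its mean intensity was 1603, 835 and 721 in Cy3 and 554, 414 and 401 in Cy5, highest on array 1 and lowest on array 3 in both channels. RNA of Fabp5 and of that locus cannot be told apart by these probes. Among the 5 genes closest to Fabp5 that have an established symbol were Tnfaip2, a gene induced by tumour necrosis factor, at 0.34, Zfp764 at 0.42, Gng11, for a G protein subunit, at 0.44, and Gjc1, for a connexin, at 0.51.

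The probe NAP111439-1 was placed by the array files on chromosome 18. It gave ratios of 1.93, 1.63 and 1.21, with 3279, 1719 and 1349 in Cy3 and 1161, 878 and 817 in Cy5. RefSeq lists a pseudogene of Fabp5, Fabp5l2, on that chromosome in GRCm38.p6, used here for names only because its build is not that of the files. Whether the probe lies in it was not tested.

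**Figure D4:**
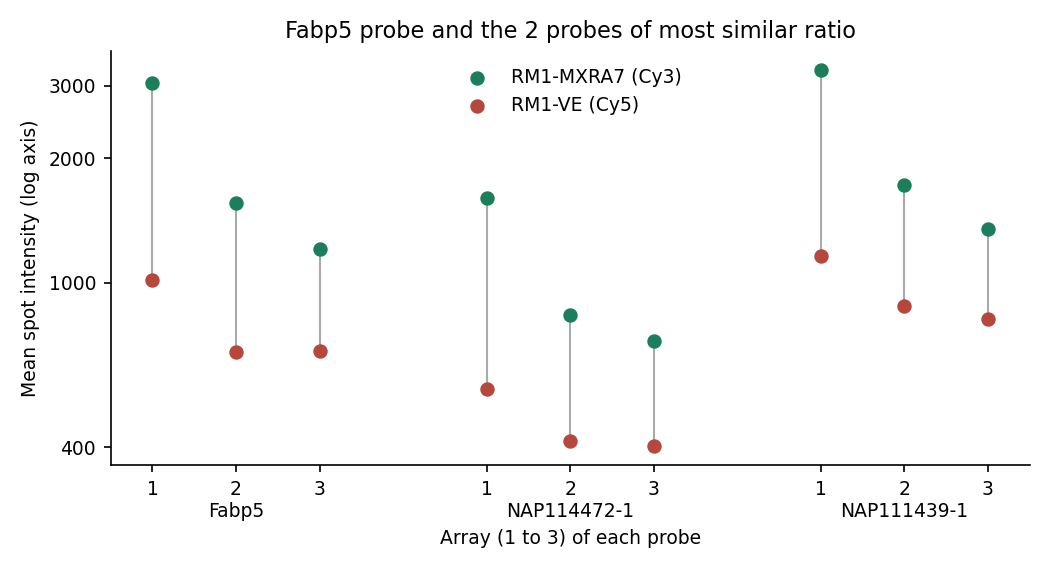
Mean spot intensity, on a log axis, of the Fabp5 probe and of the 2 probes whose ratios were nearest to it, in RM1-MXRA7 (green, Cy3) and RM1-VE (red, Cy5) on arrays 1 to 3. In each probe array 1 is the brightest in both channels, at 3049 and 1018 for Fabp5, and RM1-MXRA7 lies above RM1-VE on every array.

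Of 54 genes known in general as PPAR targets, 34 passed the filter, and 3 rose and 3 fell. That is 8.82% in each direction, near the 9.56% and 10.8% of all genes, and is not a result about the targets. With median centring in place of loess, 1 was called higher and 17 lower, as the ratios of all genes shifted down with them. The median log2 ratio of the 34 was 0.044 before surface removal and 0.070 after it, against -0.015 and 0.0041 for all genes. Vldlr, a lipoprotein receptor, rose with 0.59 ± 0.08 (SD, n = 3; limma adjusted p = 2.5e-05) before and 0.22 ± 0.07 (adjusted p = 0.021) after, although a second probe gave -0.073 and 0.057. Acaa2, a thiolase of mitochondrial fatty acid oxidation, rose with 0.45 ± 0.05 (limma adjusted p = 0.00022) and 0.34 ± 0.02 (adjusted p = 0.0026). Acsl1, which links fatty acids to coenzyme A, rose with 0.22 ± 0.10 and 0.22 ± 0.13 (limma adjusted p = 0.026 and 0.036).

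The 3 targets that fell belong to fatty acid breakdown or to peroxisomes. Acaa2, which rose, also belongs to fatty acid breakdown, so this grouping does not set the genes that fell apart. Hadhb, a subunit of the mitochondrial trifunctional protein, fell with -0.60 ± 0.03 (SD, n = 3; limma adjusted p = 1.8e-05) before and -0.37 ± 0.10 (adjusted p = 0.0032) after surface removal. Cat, for catalase, fell with -0.47 ± 0.04 and -0.28 ± 0.06 (limma adjusted p = 0.00015 and 0.0081), and its second probe gave -0.16 and -0.22. Cpt1b, the muscle type carnitine palmitoyltransferase, fell with -0.23 ± 0.16 and -0.19 ± 0.08 (limma adjusted p = 0.027 and 0.037). Cpt1b was dim, with mean log2 levels of 6.95 in RM1-MXRA7 and 7.19 in RM1-VE. Of these 6 genes, Acaa2 alone stayed called in both fits without any 1 of the 3 arrays. Hadhb and Cat lost the call without array 2, Vldlr without array 2 or 3, Acsl1 without array 2 or 3 and Cpt1b without array 1 or 2. In Agilent's processed signals Acsl1 and Cpt1b were not called (limma adjusted p = 0.072 and 0.064). Calls made only before surface removal were mostly upward, 10 up and 5 down in all before it, against 4 and 4 after it. Plin2, a lipid droplet coat protein, stood at 0.41 ± 0.13 before and 0.040 ± 0.01 after. Pdk4, Lpl, Adipoq and Plin1, which are much used as readouts of PPARs, were not well above background on any array in either line. Other targets were bright in both lines and called in neither fit. Among them Angptl4 had log2 levels of 15.3 in RM1-MXRA7 and 15.2 in RM1-VE, with a ratio of 0.15 ± 0.23. Cpt1a had 12.8 and 12.9, with -0.16 ± 0.06.

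In the list of RXR partners and cofactors, the lower level of Nr1h3 stood apart in size. This gene encodes the liver X receptor alpha, a sterol receptor that binds DNA with RXR. Its ratios were -1.63, -1.89 and -1.28, a mean of -1.60 ± 0.31 (SD, n = 3; limma adjusted p = 6.0e-09), or 3.03-fold lower in RM1-MXRA7, and -1.54 ± 0.23 (adjusted p = 9.9e-06) with the surface removed. The mean log2 level was a dim 7.07 in RM1-MXRA7 and 8.67 in RM1-VE. In Agilent's processed signals the ratio was -2.60, so its size depends on the processing. A second Nr1h3 probe gave -1.31 and -1.24, and the call held without any 1 array. Crebbp, a coactivator with acetyltransferase activity, fell with -0.47 ± 0.05 and -0.24 ± 0.04 (limma adjusted p = 0.00016 and 0.012), while its second probe gave 0.016 and -0.043 and the call was lost without array 2. Of 20 genes on the array 18 passed the filter, 0 rose and 2 fell by limma (1 and 4 at an unadjusted p of 0.05 in both fits), and their median log2 ratio was -0.076 before and -0.024 after. The shares called were 0% and 11.1%, against 9.56% and 10.8% of all genes. Rxrb, a relative of Rxra, had 0.032 ± 0.08 before and 0.26 ± 0.04 after and was called only after removal. Rxrg had 0.27 ± 0.06 before and -0.064 ± 0.07 after and was called only before it.

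Of 12 other carriers of the same protein family on the array, 5 passed the filter, and limma called 0 of them higher in both fits (also 0 at an unadjusted p of 0.05 in both). Of all genes, 9.56% were called higher in both fits. Fabp7, the brain type binding protein, had 0.19 ± 0.34 before and 0.34 ± 0.30 after and was called only after. Crabp2, a carrier of retinoic acid, had -0.35 ± 0.13 before and -0.15 ± 0.10 after and was called only before.

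Fabp5 and Crabp2 can both carry retinoic acid, so genes of its pathway were also counted. Of 16 on the array 10 passed the filter, and 2 rose and 3 fell. That is 20% and 30% of only 10 genes, against 9.56% and 10.8% of all genes, and is not read as a result about the pathway. Rdh10, a retinol dehydrogenase, rose with 0.59 ± 0.15 (SD, n = 3; limma adjusted p = 4.3e-05) before and 0.60 ± 0.09 (adjusted p = 0.00029) after surface removal. Rarb, a retinoic acid receptor, rose with 0.59 ± 0.26 and 0.71 ± 0.23 (limma adjusted p = 0.00014 and 0.00069). Rarb was dim, with mean log2 levels of 7.98 in RM1-MXRA7 and 7.39 in RM1-VE. In Agilent's processed signals it had 1.09, so its size depends on the processing. Rbp4, the retinol carrier of plasma, and Cyp26b1, which breaks retinoic acid down, were among those that fell, Rbp4 with -0.55 ± 0.32 and -0.48 ± 0.39 and Cyp26b1 with -0.46 ± 0.32 and -0.28 ± 0.25 (limma adjusted p after removal 0.022 and 0.048). The calls on Rdh10 and Rarb held without any 1 array, that on Rbp4 was lost without array 2 and that on Cyp26b1 without array 2 or 3. Rbp4 and Cyp26b1 were not called in Agilent's processed signals (limma adjusted p = 0.062 and 0.14). The median log2 ratio of the 10 was -0.16 before and -0.068 after removal.

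Of 16 genes of fatty acid uptake and activation, 13 passed the filter, 2 rose and 0 fell by limma (also 2 and 0 at an unadjusted p of 0.05 in both fits), with a median log2 ratio of 0.16 before and 0.096 after. The shares called were 15.4% and 0%, against 9.56% and 10.8% of all genes. Cav2, for caveolin 2, a coat protein of membrane caveolae, rose with 0.62, 0.72 and 0.58, a mean of 0.64 ± 0.07 (SD, n = 3; limma adjusted p = 1.1e-05), and 0.53 ± 0.04 (adjusted p = 0.00036) after removal. Its 2 other probes gave 0.46 and 0.50 before and 0.23 and 0.26 after, and the call held without any 1 array. The other gene that rose was Acsl1, described above, which is in both lists. Slc27a1, a fatty acid transport protein, had -0.033, 0.55 and 0.67 on the 3 arrays and did not differ from 0 after surface removal.

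**Figure D5:**
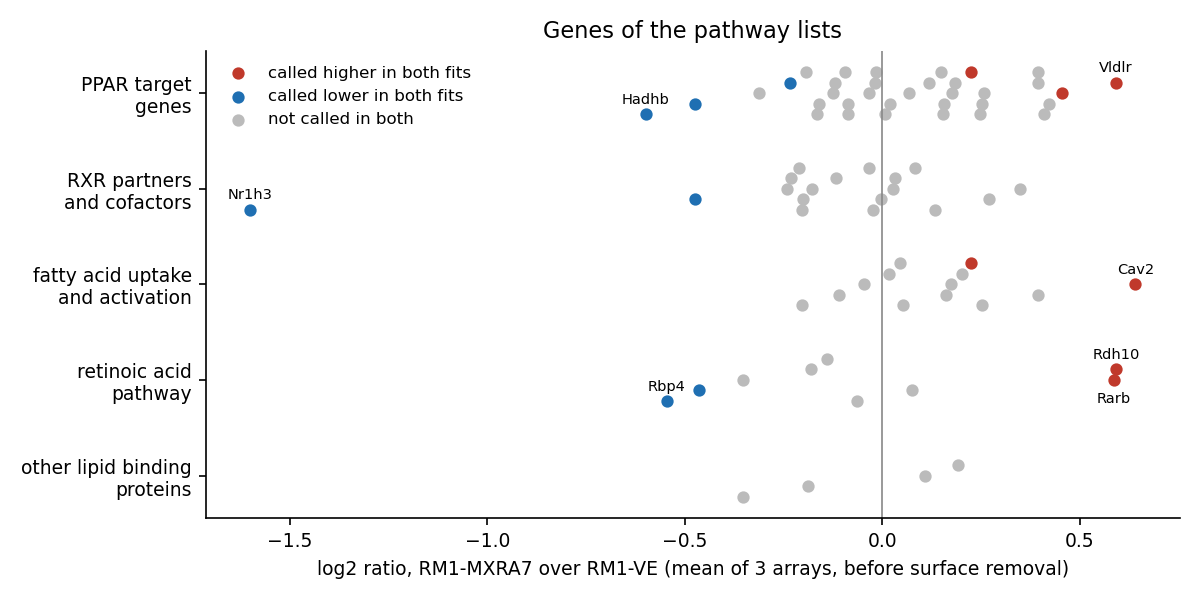
Mean log2 ratio of RM1-MXRA7 over RM1-VE, before surface removal, of genes that passed the filter in 5 pathway lists, 1 point per gene. Red and blue mark genes called higher or lower by limma both before and after removal, and grey the rest. Nr1h3 stands at -1.60 and Cav2 at 0.64, and most genes lie within 0.5 of 0.

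Markers of other cells were measured beside the members, since Fabp4 and Pparg are known from fat cells and macrophages. Of 8 adipocyte markers 3 passed the filter, and Adipoq, Plin1, Cidec, Lep and Cfd were well above background on 0 arrays. Lipe, a lipase of that list, rose with 0.41 ± 0.14 and 0.26 ± 0.17 (SD, n = 3; limma adjusted p after removal 0.029), while Retn and Adig had -0.19 and -0.20 before and -0.020 each after, and the median of the 3 was -0.19 before and -0.020 after. Of 8 macrophage markers 4 passed, with Ptprc, Lyz2 and Tyrobp on 0 arrays, and Cd14 rose with 0.34 ± 0.15 and 0.18 ± 0.07 (limma adjusted p after removal 0.047). Of the other macrophage markers that passed, Cd68 had -0.34 and -0.082 and was called lower only before removal, Itgam had -0.076 and -0.20 and was called lower only after it, and Csf1r had 0.062 and 0.17 and was called in neither. The median of the 4 was -0.0070 before and 0.042 after. Of 8 endothelial markers 4 passed, with Tek, Emcn, Tie1 and Cldn5 on 0 arrays, and Cdh5 fell with -0.87 ± 0.28 and -0.72 ± 0.31 (limma adjusted p after removal 0.0016). In Agilent's processed signals Cdh5 had -1.25, so its size depends on the processing. Pecam1 had -0.19 and -0.024 and Vwf -0.21 and -0.085, and both were called in neither fit. Kdr had -0.24 and -0.063 and was called lower only before removal. The median of these 4 was -0.22 before and -0.074 after. Without array 2, and without 1 other array, the calls on Lipe and Cd14 were lost, and Cd14 was not called in Agilent's processed signals (limma adjusted p = 0.097). The mean log2 level of the markers that passed ranged over the arrays from 6.82 to 7.52 in RM1-MXRA7 and 6.76 to 7.52 in RM1-VE for adipocytes, and from 10.67 to 11.31 and 10.72 to 11.26 for macrophages. For endothelium it was 8.22 to 8.28 and 8.55 to 8.74. That mean was raised by Kdr, at 11.4 in RM1-MXRA7 and 11.6 in RM1-VE. Pecam1, Vwf and Cdh5 were dim, at 7.07, 7.21 and 7.27 in RM1-MXRA7 and 7.26, 7.42 and 8.14 in RM1-VE. Of 8 muscle markers 2 passed the filter, where Tnnt2 rose with 0.27 ± 0.11 and 0.45 ± 0.05, a call lost without array 2. Myh7 was called lower, but was well above background on 1 of 3 arrays in RM1-MXRA7 and 3 of 3 in RM1-VE, so no size is given.

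The labelled cell type was only partly borne out by its markers. Of 11 prostate epithelium markers 4 passed the filter, the keratins Krt8, Krt18 and Krt14 and the basal factor Trp63, while Pbsn, Krt5, Epcam, Cdh1 and Psca were well above background on 0 arrays. Of 8 mesenchymal markers 7 passed, of which 2 rose and 2 fell. That is 28.6% of the 7 in each direction, against 9.56% and 10.8% of all genes. Col1a1, for a chain of type I collagen, fell with -1.82 ± 0.21 and -1.75 ± 0.16 (SD, n = 3; limma adjusted p = 2.6e-10 and 1.5e-06), or 3.53-fold, and Acta2, for smooth muscle actin, with -0.71 ± 0.46 and -0.70 ± 0.46. Acta2 was dim, with mean log2 levels of 6.92 in RM1-MXRA7 and 7.63 in RM1-VE. In Agilent's processed signals it had -1.36, so its size depends on the processing. Fn1, for fibronectin, rose with 0.73 ± 0.10 and 0.87 ± 0.13, and Col1a2, for the other chain of type I collagen, with 0.40 ± 0.09 and 0.21 ± 0.08. The calls on Col1a1 and Fn1 held without any 1 array, that on Acta2 was lost without array 2 and that on Col1a2 without array 2 or 3. Trp63 fell with -0.52 ± 0.06 and -0.33 ± 0.06 (SD, n = 3; limma adjusted p after removal 0.0038), a call lost without array 2. Krt18 had 0.59 ± 0.15 before and 0.081 ± 0.02 after and was called higher only before removal. Krt8 had -0.21 and -0.15 and was called lower only before it, and Krt14 had -0.17 and -0.18 and was called in neither. The median of the 4 prostate epithelium markers was -0.19 before and -0.17 after. In RNA of whole cultures, fewer cells that express a gene and less of its RNA per cell cannot be told apart, and the part of these markers in the members' ratios was not tested.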

How the data were processed

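Total RNA of RM1-MXRA7 (Cy3) and RM1-VE (Cy5) was measured on 3 Agilent 2-colour arrays, each a numbered pair of the lines. Per the file headers, the scanner files deposited by the authors give the mean, background and processed intensity of each spot, and a log10 ratio, red over green, that was left aside. The submitters' processing notes name Agilent Feature Extraction 10.7.1.1. The linear ratio per probe in the deposited series matrix matched processed green over processed red to within 1% for 100% of the probes with 1 spot, with medians of 1.02, 1.03 and 0.972 per column.

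Background was corrected by normexp with an offset of 50, and loess was run within each array, with controls at weight 0 (limma 3.58.1, R 4.3.3). Outlier spots were dropped, and replicate spots averaged. A probe passed the filter if a share of 0.5 or more of its spots was well above background in the same channel on all 3 arrays. A gene was represented by its brightest such probe, which gave 16819 genes. Levels are log2 intensities per channel after loess and Aquantile. Limma's lmFit and eBayes tested each ratio against 0. Each p-value measures only the spread between these arrays. The surface was a polynomial of degree 4 over row and column, alone and times log2 intensity, fitted per array.

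Across genes, which are not independent replicates, Pearson's r between arrays was 0.851, 0.785 and 0.813. The number of arrays, 3, limits the precision. Named genes are Mxra7, the members, up to 6 genes of each pathway list with the largest absolute ratio among those called before and after surface removal, the genes tested within 1 Mb of the Fabp5 probe and the 5 established symbols nearest to Fabp5 in ratio. Other genes named from the lists, among them those called in 1 fit only, were chosen after their values were seen. The members and lists were chosen with earlier results of these data known, and the lists come from general knowledge. Alternatives covered background correction, normalization, the filter, probe choice, the deposited ratios, the pairing and each array left out. Some genes that these rules would name, and their points in the plot of the lists, are not reported here. The steps were tested on simulated data.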

Additional observations from a re-analysis of the deposited data

How the results depend on the processing

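The log2 ratio of Fabp5 kept its direction under all 15 alternatives, not all of which could move it. It lay between 1.40 and 1.92, and within 1 SD of 1.71 in each. Without 1 array at a time it was 1.56 to 1.92. Fabp4 (0.26 to 1.25), Pparg (0.11 to 0.41) and Ppara (-0.50 to -0.20) kept their direction under every alternative run, and Ppard ranged from -0.23 to 0.24. For Fabp5, Fabp4, Pparg and Ppara, the filter settings, the mean of probes and the single channels could only return the first value. The deposited ratios repeat the processed signals. These settings therefore add nothing to the directions kept. The brighter Rxra probe, at -0.032, turned to 0.14 with the surface removed, 0.014 without background correction, 0.30 in both Agilent's processed signals and the deposited ratios, 0.13 with a local offset subtracted, an alternative chosen after seeing the data, and 0.10 as the mean of its probes. Of all genes, limma called 7963 in the first fit, 5111 with the surface removed, 4100 in the processed signals and in the deposited ratios, and 5108 to 7397 without 1 array, the fewest without replicate 2. Single channels gave 7963 with the array as a replicate block, which is the pairing the ratio already holds, and 2323 with no replicate block. For PPAR targets the same settings gave 15, 8, 5, 5 and 9 to 13 calls, and 5 with no replicate block. For RXR partners they gave 7, then 15 with median centring, 3 in the processed signals and the deposited ratios, 3 to 6 without 1 array and 2 with no replicate block. Fatty acid uptake gave 4, then 2 with the mean of probes, 1 to 5 without 1 array and 1 with no replicate block. Other lipid binding proteins gave 2, then 4 without a filter, 2 to 4 without 1 array and 1 with no replicate block. The retinoic acid pathway gave 6, then 10 with median centring, 3 in the processed signals and the deposited ratios, 6 to 7 without 1 array and 2 with no replicate block. The fewest calls came without replicate 2 for PPAR targets, RXR partners and fatty acid uptake, and the most without replicate 1 for other lipid binding proteins. Of 24 genes outside the members described above as having risen or fallen, 9 kept the call in both fits without any 1 array, and the other 15 all lost it without array 2. Median centring moved the median of all genes to -0.29, and with it 9868 of 10822 calls were downward, as were 17 of 18 among PPAR targets, 15 of 15 among RXR partners, 5 of 6 in fatty acid uptake, 3 of 3 among other lipid binding proteins and 8 of 10 in the retinoic acid pathway. The cause of these shifts was not tested. Signal over background limits Fabp3, Fabp4, Cd36 and the dimmer probes of Ppara, where no ratio or only a nominal bound can be had.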
